A study of Homo sapiens with 4 samples.

Results

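The replication-dependent histone genes of chromosome 6 were taken as the protein-coding genes between 26 and 28 Mb (hg19) whose names begin with H1-, H2AC, H2BC, H3C or H4C, known earlier as HIST1 genes. There were 50 of them among 20136 protein-coding genes, comprising 6 H1, 11 H2A, 12 H2B, 10 H3 and 11 H4 genes. They lay in 3 clusters, split at gaps between neighbours of over 400 kb. The first cluster held 29 members with start sites at chr6:26018015-26285762, the second 5 at chr6:27100574-27114885 and the third 16 at chr6:27775707-27861203. Their promoters were examined in ATAC-seq peak lists, in which a peak marks a stretch of chromatin that the Tn5 transposase could enter. The 4 libraries were made from HL-60 (ATCC CCL-240), an established acute promyelocytic leukemia line. The ATRA group received 1 µM all-trans retinoic acid for 4 days, the control group received the same volume of ethanol, and each group had 2 replicates. HL-60 is a single line, so the replicates describe these cultures and no other cells. Each member was described in turn: whether a peak lay within 1 kb of its transcription start site (TSS), how wide that peak was, and how it ranked by score within its own list.

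Replication-dependent histone genes supply the histones that package newly copied DNA, and they are switched on together as cells enter S phase. They are short genes without introns, and their mRNA ends in a stem-loop bound by SLBP in place of a poly(A) tail. NPAT, HINFP, POU2F1 and NF-Y are known to act at their promoters, which gather with NPAT in the histone locus body. HL-60 cells given ATRA mature along the granulocyte lineage and leave the cell cycle.

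The lists held 43494 peaks in ATRA replicate 1, 63541 in ATRA replicate 2, 42081 in control replicate 1 and 45903 in control replicate 2, and median peak width was 291 to 416 bp. ATRA replicate 2 had both the longest list and the widest peaks. The lists carry no read counts, so the depth of each library is unknown. Of 12 promyelocytic and neutrophil marker genes, 6 had a promoter peak in all 4 libraries, 3 in some and 3 (ELANE, AZU1 and FPR1) in none. Among markers of other cell types, 0 of 5 T cell, 0 of 5 erythroid and 0 of 4 epithelial genes had a peak in all 4 libraries, and LCK had one in both ATRA libraries only. CD79A was the 1 of 5 B cell genes with a peak throughout.

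Promoter sequences of 6 members are given first, because the classes differ in sequence and because members with and without a peak can be read side by side. Each run covers 250 bases before the TSS and the first 50 bases from it, 5′ to 3′ on the strand of the gene, in hg19. Capitals mark the 5 motifs searched on both strands. The TATA motif was TATAAA, where the basal transcription machinery binds. The box bound by NF-Y was CCAAT, and the octamer bound by POU2F1 was ATTTGCAT. The remaining motifs were the GC box, GGGCGG, and the E2F site, TTTNGCGC. The regions are chr6:26124150-26124449 on the plus strand for H2AC6, chr6:27775701-27776000 (plus) for H2AC13, chr6:27782506-27782805 (minus) for H2AC14, chr6:26032278-26032577 (minus) for H3C2, chr6:26189291-26189590 (minus) for H4C4 and chr6:26247175-26247474 (minus) for H4C7. H2AC6 belonged to the promoter of highest rank among the H2A and H2B genes. H2AC13 and H2AC14 are close in sequence, and H2AC13 had a peak in every library whereas H2AC14 had one in no library. H3C2 and H4C4 were among the members ranked lower in both ATRA libraries, and H4C7 was the H4 gene without a peak.
H2AC6: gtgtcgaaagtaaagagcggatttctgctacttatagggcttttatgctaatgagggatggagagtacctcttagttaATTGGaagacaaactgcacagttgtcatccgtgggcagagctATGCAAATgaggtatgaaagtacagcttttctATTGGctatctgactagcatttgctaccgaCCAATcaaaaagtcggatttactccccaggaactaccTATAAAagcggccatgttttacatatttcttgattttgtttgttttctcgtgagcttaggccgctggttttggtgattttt
H2AC13: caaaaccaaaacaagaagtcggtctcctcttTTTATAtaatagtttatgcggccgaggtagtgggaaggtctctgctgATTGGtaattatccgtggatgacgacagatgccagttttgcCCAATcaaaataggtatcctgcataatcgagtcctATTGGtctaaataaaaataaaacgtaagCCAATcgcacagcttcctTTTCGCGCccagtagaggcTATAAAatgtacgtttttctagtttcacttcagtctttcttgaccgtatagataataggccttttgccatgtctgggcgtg
H2AC14: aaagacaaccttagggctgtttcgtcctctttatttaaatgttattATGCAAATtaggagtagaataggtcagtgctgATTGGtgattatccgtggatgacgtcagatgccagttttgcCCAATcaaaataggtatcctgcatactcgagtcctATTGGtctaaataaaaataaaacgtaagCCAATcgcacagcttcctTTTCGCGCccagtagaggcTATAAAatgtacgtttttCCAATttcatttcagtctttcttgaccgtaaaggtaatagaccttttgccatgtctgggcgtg
H3C2: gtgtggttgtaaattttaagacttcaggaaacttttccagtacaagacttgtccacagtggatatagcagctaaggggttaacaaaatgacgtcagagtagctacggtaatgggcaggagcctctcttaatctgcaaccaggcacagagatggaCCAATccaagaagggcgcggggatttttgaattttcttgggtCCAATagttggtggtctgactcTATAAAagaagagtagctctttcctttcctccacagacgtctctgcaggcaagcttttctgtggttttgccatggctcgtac
H4C4: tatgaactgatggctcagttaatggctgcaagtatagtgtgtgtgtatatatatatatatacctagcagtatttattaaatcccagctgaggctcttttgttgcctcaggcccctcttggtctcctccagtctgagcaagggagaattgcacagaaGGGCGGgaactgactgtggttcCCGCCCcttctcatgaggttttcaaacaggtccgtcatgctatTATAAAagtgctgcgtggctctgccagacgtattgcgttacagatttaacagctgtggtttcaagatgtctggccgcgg
H4C7: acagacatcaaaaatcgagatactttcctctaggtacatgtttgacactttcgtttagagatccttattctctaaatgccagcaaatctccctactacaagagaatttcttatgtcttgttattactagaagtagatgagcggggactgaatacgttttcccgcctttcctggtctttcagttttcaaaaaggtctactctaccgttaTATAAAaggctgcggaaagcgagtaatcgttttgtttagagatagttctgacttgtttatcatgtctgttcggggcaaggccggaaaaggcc

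In these 6 promoters the TATA box began 29 to 42 bases before the TSS. The H2AC13 sequence held another match on the minus strand at -219. That match lies just upstream of the TSS of its partner H2BC13, which is on the minus strand 244 bp away. CCAAT was found in the 3 H2A promoters and in H3C2, at up to 5 places, and in neither H4 promoter shown. H4C4 instead held a GC box at -94 on the plus strand and another at -72 on the minus strand. The octamer of H2AC6 began at -130 and that of H2AC14 at -204, both on the minus strand, and H2AC13 had no match. The promoters of H2AC13 and H2AC14 were identical at 252 of 300 positions (84%), and both had the E2F match at -50.

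Over all 50 members, the motifs followed the histone class. CCAAT was present in the promoters of 43 members (86.0%) against 35.9% of all protein-coding genes. It was found in each of the H1, H2A, H2B and H3 genes, but in 4 of the 11 H4 genes. The octamer was found in 9 of 11 H2A and 9 of 12 H2B promoters and in 0 of the other members, compared with 1.58% of all genes. TATAAA was found in 34 members (68.0%; 9.81% of all genes), and the E2F sequence in 12 (24%; 2.27%), of which 6 were H2A and 5 H2B genes. Head-to-head H2A and H2B genes, with TSS 194 to 251 bp apart, share most of the searched sequence. A motif between such a pair can therefore be counted for both genes, so the H2A and H2B counts are not independent. The GC box was the rare one, in 9 members (18.0%) against 61.0% of all genes. The median G and C content of the promoter was 43.3% among the members with a peak in all 4 libraries and 65.3% among all genes with such peaks.

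**Figure D1:**
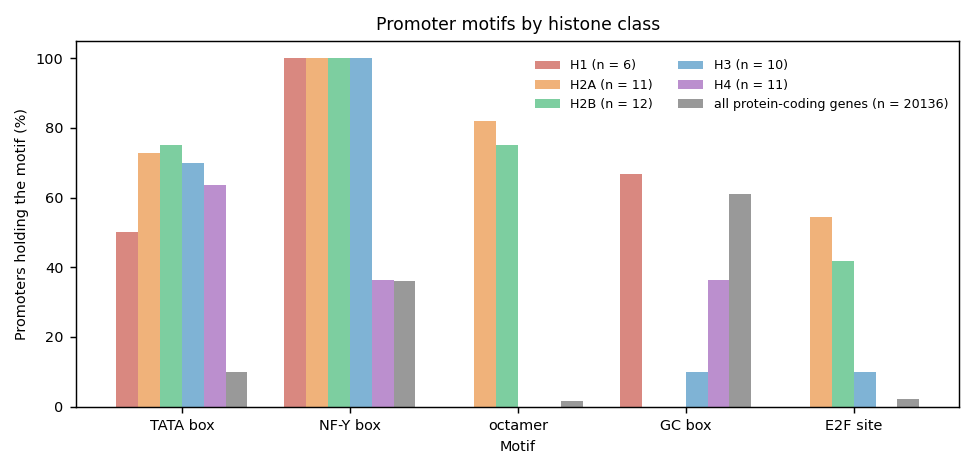
Share of promoters (%, y axis) that hold each of 5 motifs, for the members of each histone class (coloured bars) and for all protein-coding genes (grey). CCAAT reaches 100% in H1, H2A, H2B and H3 genes, and the octamer is seen only in H2A (81.8%) and H2B (75%) genes and in 1.58% of all genes.

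The histone stem-loop, a 16-base element with stems of 6 bases and a loop of 4, was also looked for by its conserved bases within 100 bases after the stop codon on the strand of the gene. It was found in all 50 members and in 88 of 20016 protein-coding genes (0.44%), and it began 23 to 63 bases after the stop codon. The 3 commonest forms are given below with the 4 bases of the loop in capitals. The first was carried by 28 members of the H1, H2A, H2B and H3 classes, the second by 8 H4 genes and the last by 7 members, among them H1-1, H1-6 and H2BC4. The stems of the first and the last are the same, and only the last base of the loop differs.
common form: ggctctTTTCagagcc
H4 form: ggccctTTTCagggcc
A-loop form: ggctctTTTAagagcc

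A peak lay within 1 kb of the TSS in all 4 libraries at 34 of the 50 members (68.0%), whereas 40.9% of all protein-coding genes had one. Another 11 members (22.0%) had a peak in no library, compared with 45.5% of all genes, and 5 members had a peak in 1 to 3 libraries. Of the members, 36 had a peak in ATRA replicate 1, 39 in ATRA replicate 2, 38 in control replicate 1 and 37 in control replicate 2. No member had a peak in both ATRA libraries and neither control library (2.09% of all genes) or in both control libraries and neither ATRA library (0.293%). With 2 libraries against 2, an exact two-sided permutation test cannot reach p under 0.05, so presence was not tested.

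The classes differed in how many members had a peak. Among the core histones, 10 of 11 H2A genes and 9 of 11 H4 genes had one in all 4 libraries. The count was 8 of 12 for H2B and 5 of 10 for H3. Of the H1 genes, which encode linker histones that bind DNA between nucleosomes, 2 of 6 (H1-2 and H1-4) had a peak in every library. These counts are of peaks within 1 kb. A peak lay over the TSS itself in all 4 libraries at 32 members, leaving out H1-4 and H2AC16, which each had such a peak in 3 libraries. H1-1, the testis histone gene H1-6, H2BC6, H2BC9, H2BC10, H2BC14, H2AC14, H3C6, H3C7, H3C8 and H4C7 had a peak in no library. Of these, H4C7, H3C7, H2BC9, H3C8 and H2BC10 are neighbours in the first cluster. H2AC1 and H2BC1, testis histone genes that lie outside the window on chromosome 6, also had a peak in no library. All 5 members of the second cluster had a peak throughout, as did 18 of 29 in the first and 11 of 16 in the third.

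Histone genes are near copies of each other, so the uniqueness of the sequence was measured around each TSS as the share of 31-base words that occur once in the genome. This share was 67.9% to 100% (median 92.0%) at members with a peak in all 4 libraries and 72.2% to 100% (median 92.6%) at members with a peak in none. H2AC14 and H2BC14 had 73.3% and 72.2%, close to the 71.2% of H2AC13 and H2BC13, which had a peak. How the aligner placed reads that match several copies was not tested.

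The 5 members with peaks in some libraries had modest ranks. Score percentile, used here, is the share of peaks of the same list that score no higher, so 100 is the top of the list. H1-3 was without a peak in ATRA replicate 1, and its percentile was 55.1 in ATRA replicate 2, 49.5 in control replicate 1 and 59.2 in control replicate 2. H1-5 also lacked one in ATRA replicate 1, with 37.8 in ATRA replicate 2 and 69.0 and 67.9 in the control libraries. H3C4 lacked one in control replicate 1, with 12.6 and 40.4 in the ATRA libraries and 27.7 in control replicate 2. In each of these 3 genes a peak lay within 1 kb of the TSS in at least 1 library of both groups. Over its own TSS, however, H1-5 had a peak only in ATRA replicate 2 (37.8), and its control peaks missed the TSS. The peak of H1-3 in control replicate 2 also missed its TSS. H3C11 and H4C13, whose TSS are neighbours, shared a peak at 34.8 in ATRA replicate 2 and 49.8 in control replicate 1. Neither had one in control replicate 2. In both libraries the shared peak covered the TSS of H3C11 and missed the TSS and transcript of H4C13. Over its own TSS, H4C13 had a peak only in ATRA replicate 2, ranked lower than the shared peak. In ATRA replicate 1 H3C11 had a peak at 43.6 and H4C13 had none.

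H2A and H2B genes often stand head to head. In 7 such pairs the TSS were 194 to 251 bp apart, and in 6 of the 7 a single peak spanned both promoters in all 4 libraries. The pairs were H2BC4 with H2AC6, H2BC11 with H2AC11, H2BC12 with H2AC12, H2BC13 with H2AC13, H2AC15 with H2BC15 and H2AC17 with H2BC17, and the pair without a peak was H2AC14 with H2BC14. Members that share a peak share its values, so the 34 members with a peak in every library rested on 26 distinct sets of peaks. Per library, the members with a peak drew on 27 to 29 distinct peaks, of which 8 to 10 served 2 members each.

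Member peaks were wide. At the 34 members the median width was 946 and 1403 bp in the ATRA libraries and 1222 and 1116 bp in the control libraries, replicate 1 first. Over the 8228 genes with a peak in all 4 libraries it was 619 and 832 bp after ATRA and 583 and 481 bp in the control. The median width of all members with a peak exceeded that of 81.0% and 85.1% of these genes in the ATRA libraries. In the control libraries it exceeded that of 92.0% and 95.4%. Because histone genes are so short, the peak often covered the whole transcript, at 11 members in ATRA replicate 1, 25 in ATRA replicate 2, 27 in control replicate 1 and 15 in control replicate 2.

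The levels of the members ranged from near the top of the list to its bottom. H2AC6 and H2BC4, which encode an H2A and an H2B histone, shared the peak with the highest mean percentile of both classes. Its percentile was 97.8 in ATRA replicate 1, 98.3 in ATRA replicate 2, 98.2 in control replicate 1 and 98.6 in control replicate 2. The 4 libraries lay within 1 percentage point, and the groups overlapped. H4C3, the highest H4 gene, was at 93.0 and 93.1 in the ATRA libraries and at 90.1 and 96.6 in the control libraries, again with overlap. By best peak the highest H3 gene was H3C1, at 86.9 and 87.3 after ATRA and at 93.2 and 89.8 in the control. That best peak reached across the TSS of its neighbour H4C1, and it covered the TSS of H3C1 itself only in control replicate 1. Over its own TSS, H3C1 had peaks at 6.01 and 57.2 after ATRA and at 93.2 and 49.0 in the control, a mean of 51.4 in place of 89.3, and with a window of 500 bp the mean was 61.6.

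At the low end, H3C12 (H3) was the most variable member, with percentiles of 44.8 and 9.76 in the ATRA libraries and 58.2 and 8.98 in the control libraries. Each group held a high and a low value, so the spread between replicates far exceeded the difference between groups. H4C5, the lowest H4 gene with a peak in all 4 libraries, was at 70.1 and 59.4 after ATRA and 65.9 and 56.3 in the control. H2BC17 and its partner H2AC17 were at 71.2 and 73.0 after ATRA and 62.1 and 72.4 in the control, which made H2BC17 the lowest H2B gene. All 3 overlapped between the groups.

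**Figure D2:**
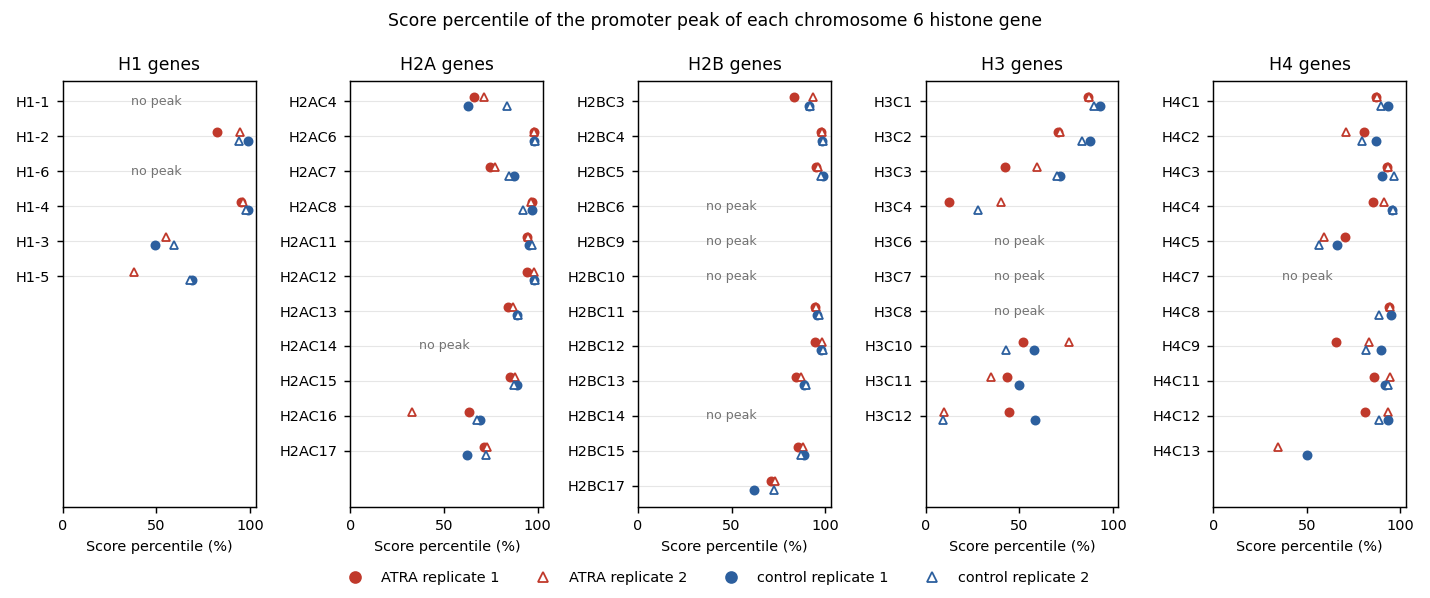
Score percentile of the best peak within 1 kb of the TSS (x axis, %) for each member, one panel per histone class with members in chromosome order. Filled circles are replicate 1 and open triangles replicate 2, red for ATRA and blue for control, and members without a peak in any library are marked. H2AC6 and H2BC4 sit near the top in all 4 libraries (97.8 to 98.6), and H3C12 spans 8.98 to 58.2.

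After ATRA, the member peaks ranked lower than in the control relative to other promoters. In 13 of the 34 members both ATRA libraries lay below both control libraries, compared with 6.9% of all 8228 genes, and in 0 members did both lie above, compared with 38.8%. The mean percentile was lower after ATRA in 28 members (82.4%), compared with 26% of all genes. The median difference, ATRA minus control, was -2.75 percentage points among the members and 3.45 among all genes. The direction of the background depended on the scale. When ranked only among the genes with a peak in all 4 libraries, 21.0% of all genes were lower and 19.9% higher without overlap and their median was -0.39 points, while 27 of 34 members were lower, 0 higher and their median was -16.4. With equally long lists, 12.9% of all genes were lower and 27.1% higher, against 22 and 0 of 32 members. In these bulk libraries, fewer cells with an open promoter and a smaller opening in each cell cannot be told apart. Counted by distinct peak sets, 9 of 26 were lower without overlap and 21 of 26 had a lower mean. No single member passed the test: limma on the log2 odds of the percentile called 0 members and 0 of the 8228 genes at an adjusted p under 0.05, 0 members had an unadjusted p under 0.05, and the lowest adjusted p of a member was 0.439. Among all genes, 0.717% had an unadjusted p under 0.05 with a lower and 11.3% with a higher percentile after ATRA.

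The 13 comprised 4 H2A, 3 H2B, 3 H3, 2 H4 and 1 H1 genes. The H1 gene, H1-4, entered through the peak of its neighbour H2BC5, so its values are not those of its own promoter. H3C1 entered through the peak of its neighbour H4C1, which covered the TSS of H3C1 only in control replicate 1. The median difference was -5.29 points for H1 (2 members), -1.82 for H2A, -1.82 for H2B, -6.35 for H3 and -3.82 for H4. By position it was -3.82 in the first cluster, -1.93 in the second and -2.60 in the third, each a negative median. The H1 value rests on H1-2 and H1-4, whose best peaks missed the TSS in at least 1 library.

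H4C4, an H4 gene at chr6:26188938-26189340, had the lowest p of the members. Its peak was at percentile 85.6 in ATRA replicate 1 and 91.0 in ATRA replicate 2, and at 95.7 and 95.9 in the control libraries. The means were 88.3 ± 3.85 and 95.8 ± 0.162 (SD, n = 2 libraries each), and the difference in log2 odds was -1.57 ± 0.74 (SE), with a limma adjusted p of 0.439. The peak covered the TSS in all 4 libraries. H3C3 was at 42.5 and 59.3 after ATRA and at 71.8 and 70.3 in the control, with every control value above every ATRA value. H2AC7 was at 74.5 and 77.3 against 87.5 and 84.7. For both genes the groups did not overlap and the peak covered the TSS throughout, with limma adjusted p of 0.528 (H3C3) and 0.594 (H2AC7). The size of these differences depended on the setting. That of H3C3, -20.2 points, was -30.2 with equally long lists and -11.8 without ATRA replicate 1. A window of 2 kb took in the higher-ranked peak of H2BC3, so the -3.24 it gave for H3C3 was the difference of H2BC3. That of H4C4 was -4.82 without ATRA replicate 1. Ranked among genes, H4C4 had -34.0 in place of -7.55 and H2AC7 -31.6 in place of -10.2.

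For other members of the 13 the best peak belonged to different places in different libraries. H3C2 was at 70.6 and 71.5 after ATRA and 88.1 and 83.5 in the control, but in control replicate 2 the best peak was one upstream, near the TSS of H2AC4. The peak over the TSS of H3C2 in that library was at 74.2, still above both ATRA values. H2AC16 was at 63.4 and 33.0 after ATRA and 69.0 and 67.9 in the control, the largest difference among the members. Its control peaks, however, lay downstream, over the 3′ part of the neighbour H1-5 and part of the stretch between H1-5 and H2AC16. They were also the best peaks of H1-5. Over the TSS of H2AC16 itself control replicate 1 had a peak at 1.87 and control replicate 2 had none. The direction of H2AC16 therefore turned when a peak had to overlap the window by 200 bp (a difference of 13.3 points). With the peaks as first chosen, it was -20.2 points, -35.4 without ATRA replicate 1 and -5.02 without ATRA replicate 2. H1-4 likewise took the values of the strong peak over H2BC5 (95.2, 96.3, 99.02 and 97.9 in the order ATRA replicates, control replicates), and its own TSS had peaks at 58.0 and 34.4 after ATRA, 4.27 in control replicate 1 and none in control replicate 2.

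In 6 members (H3C1, H3C2, H2AC4, H1-2, H1-4 and H2AC16) the best peak missed the TSS in at least 1 library. In the other 28, both ATRA libraries lay below both control libraries in 9, above in 0, and the mean was lower in 22. Among all 8228 genes these shares were 6.9%, 38.8% and 26%. The median difference of the 28 was -1.93 points. H1-2, one of the 6 and the lower of the H1 genes with a peak throughout, was at 82.5 and 94.9 after ATRA and 99.02 and 94.1 in the control.

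**Figure D3:**
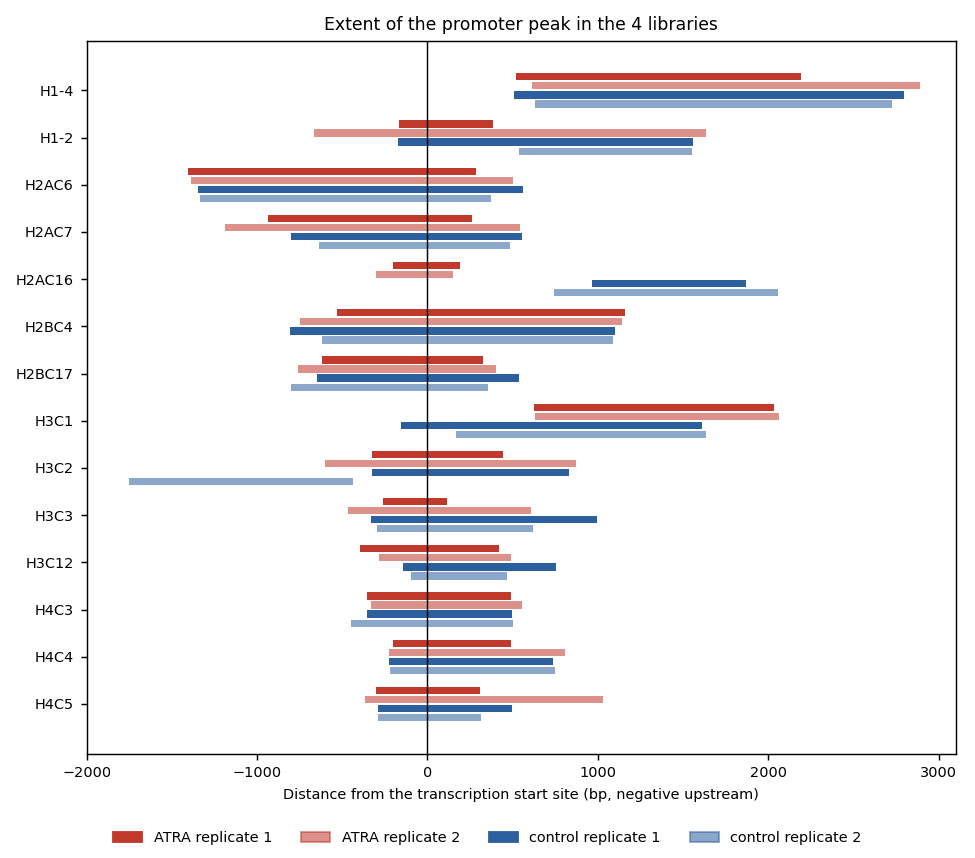
Extent of the best peak around the TSS of 14 named members (x axis, distance in bp along the gene, negative upstream), with 1 bar per library, red for ATRA and blue for control, replicate 2 in the paler shade. The peak covers the TSS of H4C4, H3C3 and H2AC7 in all 4 libraries, while the peaks of H1-4 lie downstream and those of H2AC16 lie at a different place in the control libraries.

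Most of the remaining H2A and H2B promoters were held by shared peaks of high rank. The peak of H2BC12 and H2AC12 was at 94.6 and 98.1 after ATRA and at 97.9 and 98.6 in the control, so a single ATRA library was low. That of H2BC11 and H2AC11 was at 94.3 and 94.8 against 95.6 and 96.9, and that of H2BC13 and H2AC13 at 84.2 and 87.0 against 88.8 and 89.7. Both of the latter were lower after ATRA without overlap, by small steps. The peak of H2AC15 and H2BC15 was at 85.5 and 88.0 against 88.8 and 87.2. H2BC3, which faces H3C3 across a wider gap of 1671 bp and has its own peak, was at 83.5 and 93.4 against 91.5 and 92.0. H2AC4 was lower, at 65.8 and 71.5 against 63.0 and 83.5, and in both replicates 2 its best peak was also that of H3C2. The last 3 overlapped between the groups.

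Several H4 genes varied between the ATRA replicates. H4C9 was at 65.3 in ATRA replicate 1 and 83.2 in ATRA replicate 2, and at 89.5 and 81.8 in the control. H4C12 was at 80.9 and 93.3 against 93.2 and 88.6, and H4C11 at 85.8 and 94.6 against 92.0 and 93.6. In all 3, ATRA replicate 1 was the lowest of the 4 libraries and ATRA replicate 2 lay among or above the control values. H4C2 was at 80.5 and 70.9 against 87.2 and 79.7, again with overlap, and H4C1 had the values given for H3C1.

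The 6 members with a higher mean percentile after ATRA were H3C10, H2AC17, H2BC17, H4C5, H4C8 and H2AC8. H3C10 had the largest such difference, at 51.8 and 76.8 after ATRA against 58.0 and 42.7 in the control, with overlap. H2AC8 was at 96.9 and 96.5 against 96.8 and 92.2, and H4C8 at 94.1 and 94.2 against 95.03 and 88.7. In each of the 6 the groups overlapped.

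Member peaks were also narrower after ATRA relative to the promoter peaks of all genes in the same library. Width was put on the log2 scale and centred, in each library, on the median over the 8228 genes with a peak in all 4 libraries. The centred width was lower after ATRA in 33 of 34 members, compared with 55.9% of all genes. Both ATRA libraries lay below both control libraries in 25 members (22.7% of all genes) and above in 1, H4C8 (15.1%). The median difference was -0.60 in the members and -0.06 in all genes. Counted by distinct peak sets, 25 of 26 were narrower, 18 of them without overlap. Of the 28 members whose best peak covered the TSS in all 4 libraries, 27 were narrower, 20 of them without overlap. Limma called 0 members and 0 genes at an adjusted p under 0.05, and the lowest member adjusted p was 0.488. At an unadjusted p under 0.05 limma had 7 members, all narrower (3.12% of all genes were narrower and 4.51% wider at that p). Among these 7, H2BC12 and H2AC12 share a peak, and the peaks of H2AC16 differ in place. Without centring, both ATRA libraries lay below both control libraries in 4 members (1.57% of all genes) and above in 1 (44.7%), and the median difference was -0.16 in the members and 0.38 in all genes and 22 members had a lower mean.

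H4C9, an H4 gene of the second cluster, had peaks of 466 and 723 bp in the ATRA libraries and 1060 and 722 bp in the control libraries, a centred log2 difference of -1.03 ± 0.28 (SE), with a limma unadjusted p of 0.00613 and an adjusted p of 0.519. H3C3 had 372 and 1072 bp against 1329 and 916 bp, a difference of -1.24 ± 0.39 (adjusted p = 0.565 by limma). H2AC16 had the lowest unadjusted p (0.000714; limma adjusted p = 0.488), but its peaks differ in place, as above. In bp the groups overlapped at both H4C9 and H3C3. H4C8 had 1063 and 1442 bp after ATRA and 986 and 733 bp in the control.

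**Figure D4:**
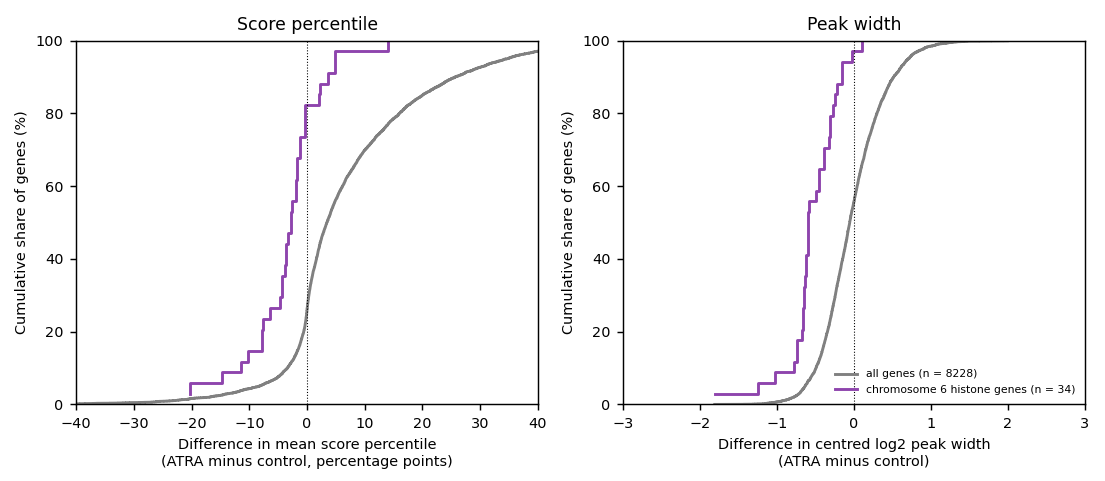
Cumulative share of genes (y axis, %) by difference in mean score percentile (left, percentage points) and in centred log2 peak width (right), ATRA minus control, for the 34 members (purple) and all 8228 genes with a peak in all 4 libraries (grey). The purple curves lie to the left, with medians of -2.75 points and -0.60 against 3.45 and -0.06.

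Base composition and control level were each set beside the difference, and together. Among 2610 other genes whose control percentile lay between the quartiles of the members (84.0 to 96.2), 7.66% were lower without overlap and the median difference was 1.86 points. Among 125 other genes with promoter G and C content between the quartiles of the members (41.4% to 46.9%), 10.4% were lower without overlap and the median was 3.07. The 38 other genes within both ranges had 21.1% lower without overlap, 55.3% with a lower mean and a median of -0.69 points, nearer to the members (38.2%, 82.4% and -2.75). Of these 38 genes 5.26% were higher without overlap, close to the 0% of the members. That share was 35.3% within the control range, 32% within the base composition range and 38.8% of all genes. For width, 56.0% of the genes within the base composition range were narrower (median -0.04), 65.3% of those within the control range (-0.13) and 78.9% of the 38 within both (-0.28), against 97.1% and -0.60 in the members. None of these sets was chosen by control width. The parts of base composition and of control width in the result were not tested.

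Neighbouring genes and histone genes elsewhere had other percentile differences. Among the 17 other protein-coding genes in the window, 11 had a peak in all 4 libraries, 10 of these had a higher mean percentile after ATRA, and the median difference was 11.1 points. Of 16 histone genes of the same families elsewhere in the genome, 11 had a peak in all 4 libraries, 10 of the 11 had a higher mean after ATRA and the median difference was 0.76 points. These 11 genes shared peaks and rested on 7 distinct sets. Among all 8228 genes, 6092 had a higher mean and the median difference was 3.45 points. The median of the histone genes elsewhere lay below that value and the median of the other genes in the window above it. Both ATRA libraries lay above both control libraries in 4 of the 11 histone genes elsewhere and below in 0, beside 38.8% and 6.9% of all genes. In width the histone genes elsewhere had a median centred log2 difference of -0.22, below the -0.06 of all genes, and that of the other genes in the window was 0.06. Without overlap, 3 of the 11 histone genes elsewhere were narrower, beside 22.7% of all genes. These differences between gene groups were not tested, since genes are not replicates.

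Genes that work with the members were mostly open. All 13 histone chaperones had a peak in all 4 libraries, as did 13 of 14 S phase genes (CDT1, which licenses replication origins, in 1 library) and 18 of 21 regulators of histone genes and histone mRNA. The regulators without a peak throughout were CCNE1 and CDK2, the cyclin E kinase that phosphorylates NPAT, each in 3 libraries, and the 3′ processing factor CPSF1 in 1. Of 10 replication-independent histone genes, which are made outside S phase as well, 5 had a peak in all 4 libraries. H3-3A had one in 3, MACROH2A1 in 2, H1-10 in 1 and H2AJ and MACROH2A2 in 0.

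Limma called 0 of the genes in these lists. Both ATRA libraries lay above both control libraries in 10 and below in 1 of the 18 regulators, and in 4 and 0 of the 13 chaperones. Among all genes the shares were 38.8% above and 6.9% below. In the 13 S phase genes the counts were 3 and 2, with a lower mean in 6 (26% of all genes) and a median difference of 0.24 points. In centred width, 11 of the 13 S phase genes were narrower (55.9% of all genes), 5 without overlap (22.7%), with a median of -0.20. The 5 replication-independent histone genes had a median of -0.34, with 3 narrower without overlap. NPAT, which drives histone transcription from the histone locus body, was at 99.8 and 99.2 after ATRA and 99.7 and 99.3 in the control. CASP8AP2, a partner of NPAT, was at 98.4 and 99.6 against 99.02 and 99.2, and HINFP, which binds H4 promoters, at 98.7 and 99.2 against 98.8 and 99.3. SLBP, which binds the stem-loop, was at 91.8 and 90.7 against 91.9 and 74.6. All 4 overlapped between the groups.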

How the data were processed

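ATAC-seq was done on 4 HL-60 libraries, grouped by their titles. The authors, per the labels and their methods, trimmed adapters (cutadapt), aligned reads to hg19 (Bowtie2) and called peaks per library with MACS2, and the deposited score of each peak has no stated scale, so it was used only as a rank. No shift to the Tn5 cut site or handling of duplicates is given in the sources used here. Genes were the protein-coding genes of GENCODE release 44 lifted to GRCh37. For each gene the best-scoring peak overlapping 1 kb on either side of the canonical TSS by at least 1 bp was taken. H4C2 had no canonical transcript and its 5′ end was used. Limma 3.58.1 (R 4.3.3) compared ATRA with control over the 8228 genes with a peak in all 4 libraries, with Benjamini-Hochberg adjustment, on log2 odds of percentile and on centred log2 width. It was also run on simulated data with planted changes larger than any difference of a member. That run cannot show whether changes of the members' size would be called. Sequences came from the GRCh37 reference. Python 3.11.15, numpy 2.4.6, pandas 2.3.3, scipy 1.17.1 and matplotlib 3.10.9 were used. The members and lists were chosen with earlier results of these data known. A single gene of the replication-independent histone list is not reported here. Members were named by rule: those with a peak in no library, the highest and lowest of each class, and the largest differences without overlap; the stem-loop, H4C9, H4C8, H3C10, H2AC8 and the partly covered members were added after values were seen. Per the paper's text the replicates were biologically independent; the labels do not say how they were separated.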

Additional observations from a re-analysis of the deposited data

How the results depend on the processing

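The lower rank of the member peaks kept its direction in every alternative that was run, with a lower mean in 22 to 32 members and 0 members called by limma in each fit that was run. A score minimum of 100 gave 1 member with a peak in both control and no ATRA library, 7 members lower and 3 higher without overlap (4.36% and 43.3% of all genes), and a median difference from all genes of -9.27 points. An equal number of peaks per list gave 22 lower without overlap (12.9% of all genes), and counting an absent peak as percentile 0 gave a median of -7.90. Ranking among the genes with a peak in all 4 libraries gave 27 lower (21.0% of all genes) and -16.1, and with equal lists 26 (21.1%) and -16.6; these settings and the next were chosen after seeing the data. Using only peaks over the TSS gave 10 lower and 0 higher of 32 members (7.05% and 37.5% of all genes), and a width difference from all genes of -0.39. Uncentred widths gave 4 narrower without overlap (1.57%). H2AC16 reversed to 13.3 points under an overlap of 200 bp. Leaving out 1 library at a time gave 15 to 24 lower (11.1% to 23.5% of all genes), 2 to 6 higher (47.7% to 62.4%) and a median difference of -6.95 to -4.46. It also gave 0 to 1 members with peaks only after ATRA and 0 to 2 only in the control. In width, 1 to 3 members were wider without overlap (28.5% to 30.7% of all genes), with a width difference of -0.52 to -0.44. With the replicate block limma called 0 members in either fit, and the lowest member adjusted p was 0.419 for percentile and 0.0717 for width. Same-numbered libraries deviated together with a correlation of 0.205 for percentile and 0.0219 for width, and 2 pairs do not show that the numbers pair the samples. Without control replicate 1, limma called 774 genes by percentile and without control replicate 2 115, 0 of them members. The cause of these changes was not tested. With no read counts, depth could not be weighed.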
